A study of Caenorhabditis elegans with 16 samples.

Results

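MicroRNA gene loci were examined in ATAC-seq data of Caenorhabditis elegans L1 larvae, in which the Tn5 transposase marks accessible DNA. A peak was taken as a microRNA peak where it lay within 500 bp of a gene annotated as a microRNA or microRNA precursor in the WBcel235 annotation. The 5 best known heterochronic microRNA genes, which time the larval stages, were left out by the same rule. This gave 139 of the 29131 peaks, and they belonged to 140 of the 256 microRNA genes searched. The rule uses the positions of the peaks and no read count. Peaks were called from these same reads, and a longer peak more readily falls within 500 bp of a gene.

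A microRNA gene is transcribed, mostly by RNA polymerase II, into a primary transcript whose hairpin is cut out by Drosha and Dicer, and the mature strand guides an Argonaute to messenger RNAs with a matching site. In C. elegans, microRNAs lie alone between genes, in clusters that share a transcript, or inside introns of coding genes. Open chromatin at such a locus may belong to the promoter or an enhancer of the microRNA, or to its host gene, and the assay does not measure the microRNA itself.

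The study asked how chromatin responds when ribosome biogenesis is disturbed, with 4 strains and 4 replicates of each. The rpoa-2::degron strain carries a degradable RPOA-2, a large subunit of RNA polymerase I, and the rrb-1::degron strain a degradable GRWD-1, a ribosome assembly factor that the labels name RRB-1. Each degron was examined alone (undepleted, collected after 18 h) and together with eft-3p::tir-1 (depleted, collected after 24 h), where the eft-3 promoter drives the TIR1 protein that directs the tagged protein to degradation. All larvae, undepleted ones included, hatched and grew at 23 °C on 1 mM auxin. A depleted group thus differs from its undepleted group in TIR1, strain and hours of growth as well, and what each of these contributes cannot be told apart. The replicates were splits of a common batch of larvae per strain, so that the p-values measure the spread between splits of a batch and not between separately grown cultures. Whole animals were used, and fewer cells of a type and less accessibility per cell cannot be told apart.

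Between 2337415 and 13010378 reads per library fell in peaks. Levels are given as CPM, the reads of a peak scaled to a common library total after TMM, and fold changes come from an edgeR quasi-likelihood fit of all 16 libraries with 2 factors of unwanted variation, with p-values adjusted over all 29131 peaks. A peak is said to have risen or fallen where its adjusted p was under 0.05. The libraries were prepared in 4 batches with a replicate of every strain in each, but the labels do not say that the replicate numbers mark the batches. The libraries numbered 2 stood apart at strong peaks. Of the 34 microRNA peaks with at least 100 CPM on average, 28 had their highest RPOA-2 depleted value in replicate 2, and the same held for 26 of 34 in GRWD-1 depleted larvae, 21 in GRWD-1 undepleted and 15 in RPOA-2 undepleted larvae. The calls below depend on these libraries. Of the 19 calls made at microRNA peaks, 18 were lost without replicate 2 of the RPOA-2 depleted larvae, and all 19 were lost without the 4 libraries numbered 2 and in the fit with 0 factors. Over all peaks, the calls upon RPOA-2 depletion also dropped from 491 to 34 without RPOA-2 depleted replicate 2. Those upon GRWD-1 depletion dropped from 402 to 87. The adjusted p without RPOA-2 depleted replicate 2 stands beside each call.

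The strain labels could be compared with the data at a microRNA peak. The peak over mir-5549 (chromosome III, 6969946 to 6972381) also covers the 5′ end of eef-1A.1, the gene known as eft-3, and reads from the promoter copy in the transgene would be counted there. RPOA-2 undepleted larvae had 163, 193, 167 and 180 CPM, and RPOA-2 depleted larvae 204, 234.6, 201 and 201 CPM. The 4 libraries with eft-3p::tir-1 were all above the 4 without it. GRWD-1 undepleted larvae had 170, 174, 184 and 161 CPM and GRWD-1 depleted larvae 188, 233, 201 and 179 CPM, which overlapped. The log2 fold changes were 0.23 ± 0.07 (SE, edgeR adjusted p = 0.0973) and 0.20 ± 0.07 (adjusted p = 0.164), neither past the threshold.

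Most microRNA peaks lay on the hairpin itself. Those peaks had a median length of 857 bp, against 380 bp beside the hairpin, and a longer peak overlaps a hairpin more readily. A peak overlapped the hairpin gene in 87 cases, 21 peaks lay upstream of the nearest hairpin and 31 downstream. In 15 cases a peak covered or neighboured more than 1 microRNA, as for the mir-35 to mir-41 cluster on chromosome II. The nearest microRNA lay inside a coding gene on the same strand at 54 peaks, inside one on the opposite strand only at 15, and outside coding genes at 70. The 5′ end of a coding gene fell in 32 of the 139 peaks, and 52 overlapped no coding gene. Signal at peaks shared with a coding promoter cannot be told apart from that of the microRNA gene. The same holds for other non-coding RNA genes under a peak. Among the peaks called below, those over mir-1, mir-71, mir-80, mir-90, mir-228, mir-58a, mir-2214 and the mir-54 cluster overlap such genes.

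These peaks were longer and stronger than peaks in general. A rule by distance favours longer peaks, so that this cannot be read as a trait of microRNA loci alone. The median length of the microRNA peaks was 644 bp against 381 bp over all peaks, and 28.1% reached 1000 bp against 9.75% of all peaks. The median level was 35.1 CPM, from 7.16 to 1285, against 19.8 CPM over all peaks. Per kb of peak the medians were closer, 60.2 CPM per kb against 52.4, so that most of the difference in level went with length. Peaks over the hairpin had a median of 64.0 CPM per kb and those beside it 55.6. The fewest reads of any microRNA peak in a library were 8, and 1 peak had under 10 reads somewhere.

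**Figure D1:**
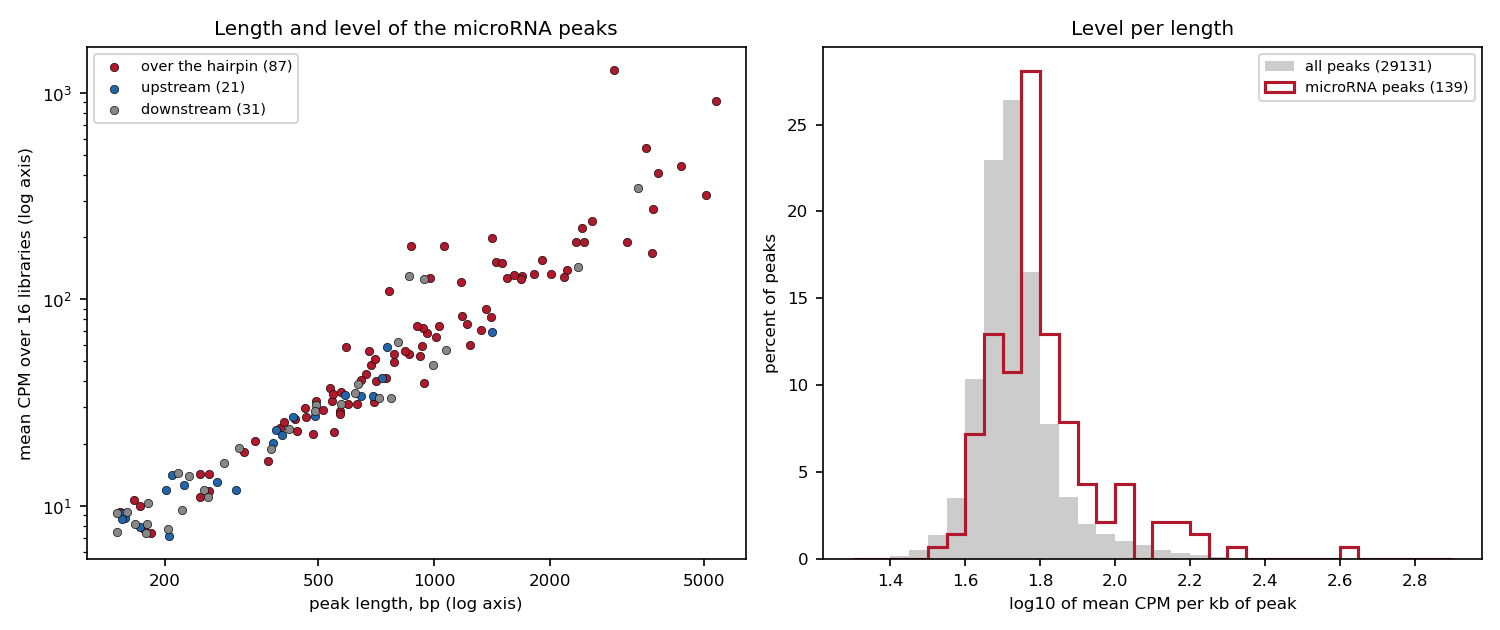
Left, length in bp and mean CPM over 16 libraries of each of the 139 microRNA peaks on log axes, coloured by their place relative to the nearest hairpin. Right, the share of peaks by mean CPM per kb (log10 scale) for microRNA peaks (outline) and all 29131 peaks (grey), each in percent of its own set. The grey also holds the microRNA peaks, and the last bin of the outline holds the mir-52 peak at 439 CPM per kb.

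The strongest locus per length was mir-52, a widely expressed member of the mir-51 family, with 439 CPM per kb over 2924 bp on chromosome IV. The mir-90 peak in an intron of K01F9.2 followed with 209 CPM per kb and the mir-53 peak with 172. The mir-71 peak, the longest with 5364 bp in the coding gene ppfr-1, had 170 CPM per kb. The weakest were the peaks upstream of mir-4936 with 34.9, downstream of mir-5594 with 37.7 and upstream of mir-269 with 39.0 CPM per kb.

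The share of microRNA genes with a peak differed between chromosomes. On the X, which carries the most microRNA genes, 31 of 72 had a peak (43.1%), and on chromosome V it was 12 of 26 (46.2%). On chromosome III 20 of 27 had one (74.1%), and on chromosome I 22 of 33 (66.7%). Chromosome V held 7.19% of the microRNA peaks but 18.6% of all peaks. These shares are descriptions and were not tested.

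Upon RPOA-2 depletion, 7 microRNA peaks rose and 1 fell, 8 of 139 (5.76%), where the same test called 1.69% of all peaks (1.2% higher and 0.487% lower). At or above the median of the microRNA peaks, 35.1 CPM, the test called 4.95% of all peaks and 11.4% of the microRNA peaks. What the strength of these peaks contributes to their share of calls was not tested. The median log2 fold change over the 139 peaks was 0.0016 (range -0.49 to 0.61), and 0.0036 over all peaks. At an unadjusted p under 0.05 there were 29 microRNA peaks, 18 higher and 11 lower, against 12.3% of all peaks (6.9% and 5.36%). The 4 depleted libraries were all above the 4 undepleted ones at 3 microRNA peaks and all below them at 2, where 2.13% and 2.49% of all peaks had such groups. The count of 8 became 0 without RPOA-2 depleted replicate 2, 1 without RPOA-2 undepleted replicate 4 and 3 without RPOA-2 undepleted replicate 1 or 3. It became 5 without RPOA-2 depleted replicate 3, GRWD-1 undepleted replicate 1 or GRWD-1 depleted replicate 3. Calls were lost over all peaks too, where 491 became 34 without RPOA-2 depleted replicate 2. Without RPOA-2 undepleted replicate 4, 1 or 3 there were 231, 179 or 142 calls over all peaks. Without RPOA-2 depleted replicate 3 there were 349, without GRWD-1 undepleted replicate 1 315, and without GRWD-1 depleted replicate 3 301.

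Upon GRWD-1 depletion, 3 microRNA peaks rose and 7 fell, 10 of 139 (7.19%) against 1.38% of all peaks (0.57% higher and 0.81% lower). At or above 35.1 CPM it was 11.4% of the microRNA peaks and 3.38% of all peaks. The median log2 fold change was -0.023 (range -0.56 to 0.47), and 0.0058 over all peaks. At an unadjusted p under 0.05 there were 6 higher and 20 lower, against 10.8% of all peaks in both directions together (5.36% and 5.47%). The depleted libraries were all below the undepleted ones at 5 microRNA peaks and all above at 0, against 2.12% and 1.76% of all peaks. The count of 10 became 1 without RPOA-2 depleted replicate 2, 5 without GRWD-1 depleted replicate 2 or 3, and 6 without GRWD-1 undepleted replicate 2 or 3. Of all peaks, 0.299% were called without RPOA-2 depleted replicate 2. Without GRWD-1 depleted replicate 2 or 3 it was 0.666% or 0.776%, and without GRWD-1 undepleted replicate 2 or 3 it was 0.549% or 1.04%. The count was 0 when the 8 GRWD-1 libraries were fitted alone, where 0.0275% of all peaks were called. That fit kept the control peaks of the RPOA-2 comparison.

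In both depletions 4 peaks were called, those at mir-239a/mir-239b, mir-2214, mir-228 and mir-80, each in the same direction. They made up 50% of the RPOA-2 calls and 40% of the GRWD-1 calls. The comparisons share no library, but they were fitted with common factors. The log2 fold change had the same sign in both depletions at 66.9% of the 139 peaks and at 59.3% of all peaks. Across the 139 peaks the values of both depletions had a Pearson r of 0.46 and a Spearman rho of 0.45, against 0.25 and 0.26 over all peaks, as a description over peaks that share libraries and factors. These values and the shares of equal sign were not matched for strength, and the microRNA peaks were stronger (median 35.1 against 19.8 CPM). Closer agreement is thus not shown to be particular to microRNA loci.

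**Figure D2:**
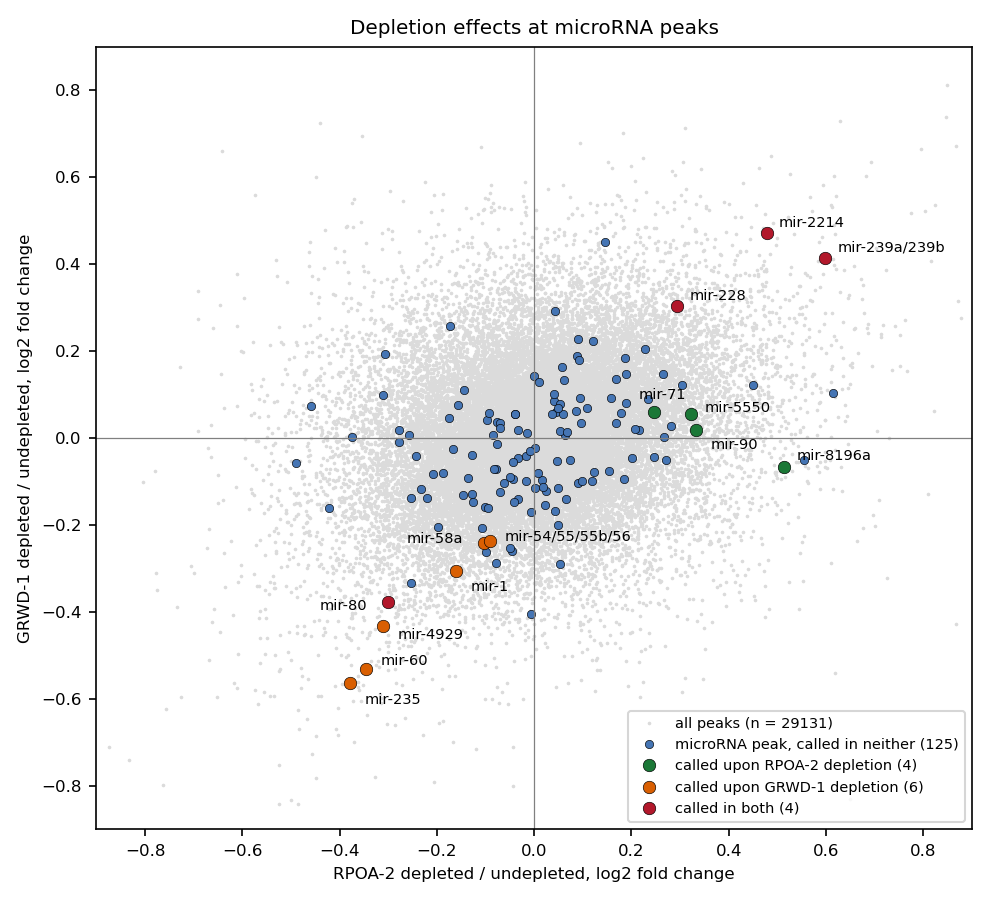
Log2 fold change upon RPOA-2 depletion (x axis) and upon GRWD-1 depletion (y axis) at the 139 microRNA peaks, coloured by where they were called, over all 29131 peaks in grey (peaks beyond ±0.9 are not drawn). The 4 peaks called in both lie away from the origin on the diagonal, and the 6 called upon GRWD-1 depletion alone also have values below 0 upon RPOA-2 depletion.

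Of the microRNAs with known roles in ageing and stress, 8 of the 9 listed genes had a peak (mir-246 had none), in 7 peaks. Upon RPOA-2 depletion 3 of these peaks rose and 1 fell, and upon GRWD-1 depletion 2 rose and 2 fell. Over all peaks 1.2% rose and 0.487% fell upon RPOA-2 depletion, and 0.57% and 0.81% upon GRWD-1 depletion. Among all peaks at or above 35.1 CPM, 4.95% and 3.38% were called in these depletions. This list and those below were chosen with earlier results of these data known, so that the counts are descriptions. The list held calls in both directions, with median log2 fold changes of 0.05 and -0.14.

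The peak over mir-239a and mir-239b rose in both depletions and had the smallest adjusted p of the 139. These neighbouring genes make closely related microRNAs, which in C. elegans are known to limit lifespan and heat resistance. The peak (chromosome X, 11790691 to 11793107) lies outside coding genes and also overlaps the non-coding RNA gene C34E11.9 and a small nucleolar RNA gene, so that its signal is not that of the microRNAs alone. RPOA-2 undepleted larvae had 149, 177, 165 and 154 CPM, and RPOA-2 depleted larvae 237, 318, 266 and 206 CPM. All 4 depleted libraries were above the undepleted ones, with replicate 2 the highest in each group. In GRWD-1 undepleted larvae the values were 163, 234, 188 and 210 CPM, and in GRWD-1 depleted larvae 208, 329, 301 and 243 CPM. Here the groups overlapped, since depleted replicate 1 was below undepleted replicates 2 and 4. The peak rose 1.51-fold upon RPOA-2 depletion (log2 0.60 ± 0.08 SE, edgeR adjusted p = 3.4e-08) and 1.33-fold upon GRWD-1 depletion (log2 0.42 ± 0.07, adjusted p = 0.000128). The effects differed by 0.18 ± 0.11 (adjusted p = 0.884). Without RPOA-2 depleted replicate 2 they were 0.46 (adjusted p = 0.172) and 0.36 (adjusted p = 0.210). The RPOA-2 call held in 15 of the 16 fits that left out a library, and so did the GRWD-1 call.

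The mir-228 peak also rose in both. This microRNA is expressed in glia of C. elegans, and its loss is known to lengthen life. The peak (chromosome IV, 5561313 to 5562289) had 91.6, 105, 110 and 123 CPM in RPOA-2 undepleted larvae and 111, 167, 131 and 125 CPM in RPOA-2 depleted larvae. In GRWD-1 undepleted larvae it had 108, 124, 117 and 120 CPM, and in GRWD-1 depleted larvae 117, 168, 156 and 151 CPM. In each pair the groups overlapped, through depleted replicate 1. The log2 fold changes were 0.29 ± 0.08 (edgeR adjusted p = 0.0329) and 0.30 ± 0.08 (adjusted p = 0.0161). Without RPOA-2 depleted replicate 2 they were 0.24 (adjusted p = 0.671) and 0.35 (adjusted p = 0.169).

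The mir-71 peak rose upon RPOA-2 depletion, and of the 19 calls this alone changed its sign when a library was left out. mir-71 is required for normal lifespan and for survival of starved L1 larvae in C. elegans. The peak (chromosome I, 9379012 to 9384375) had 672, 886, 772 and 735 CPM in RPOA-2 undepleted larvae and 789, 1497, 862 and 839 CPM in RPOA-2 depleted larvae. Depleted replicate 2 stood far above all other libraries of both groups, and the groups overlapped. The log2 fold change of 0.25 ± 0.06 (edgeR adjusted p = 0.0203) turned to -0.028 (adjusted p = 0.977) without that library. GRWD-1 undepleted larvae had 930, 1156, 748 and 813 CPM and GRWD-1 depleted larvae 865, 1344, 931 and 783 CPM, with a log2 fold change of 0.06 ± 0.06 (adjusted p = 0.790). The peak over mir-2 in the same host gene began 2778 bp away and was called in neither depletion.

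The mir-80 peak fell in both. mir-80 belongs to the mir-58 family, the relatives of fly bantam, and its loss in C. elegans is known to bring on features of dietary restriction. The peak (chromosome III, 8864764 to 8866206) had 126, 162, 176 and 178 CPM in RPOA-2 undepleted larvae and 129, 184, 123 and 103 CPM in RPOA-2 depleted larvae. These overlapped, and depleted replicate 2 was the highest of all 8. For GRWD-1, the undepleted larvae had 155, 209, 166 and 165 CPM and GRWD-1 depleted larvae 124, 151, 141 and 125 CPM, all 4 below the undepleted libraries. The log2 fold changes were -0.30 ± 0.08 (edgeR adjusted p = 0.0309) and -0.38 ± 0.08 (adjusted p = 0.00146), and without RPOA-2 depleted replicate 2 they were -0.39 (adjusted p = 0.357) and -0.33 (adjusted p = 0.251).

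Further microRNA peaks lie close to that of mir-80, and whether their values differ from its own was not tested. The peak over mir-238, known for promoting lifespan in C. elegans, begins 295 bp from the mir-80 peak and had log2 fold changes of -0.22 ± 0.08 (edgeR adjusted p = 0.139) and -0.14 ± 0.07 (adjusted p = 0.501), on the same side of 0 as mir-80 but not called. The mir-90 peak (chromosome III, 8873933 to 8874804), in the same stretch of 10041 bp, rose upon RPOA-2 depletion. It had 128, 171, 168 and 158 CPM in RPOA-2 undepleted larvae and 159, 305, 178 and 204 CPM in RPOA-2 depleted larvae, with replicate 2 far above the others and overlapping groups. Its log2 fold change was 0.33 ± 0.08 (edgeR adjusted p = 0.0125) and, without that library, 0.16 (adjusted p = 0.850). Upon GRWD-1 depletion it was 0.02 ± 0.08 (adjusted p = 0.961), and the effects differed by 0.31 ± 0.11 (unadjusted p = 0.00672, adjusted p = 0.706 with edgeR). Another mir-90 peak, 230 bp downstream of the hairpin, was called in neither depletion.

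The mir-60 peak fell upon GRWD-1 depletion. mir-60 is an intestinal microRNA of C. elegans linked to the response to oxidative stress, and it was the only one of the 3 intestinal microRNAs listed that had a peak, as mir-240 and mir-786 had none. The peak (chromosome II, 6328624 to 6329193), over a non-coding RNA gene as well, had 29.6, 43.7, 30.6 and 34.4 CPM in GRWD-1 undepleted larvae and 23.3, 22.4, 26.2 and 24.1 CPM in GRWD-1 depleted larvae, all below the undepleted ones. It fell 1.45-fold (log2 -0.53 ± 0.11, edgeR adjusted p = 0.00257). RPOA-2 undepleted larvae had 30.0, 28.7, 35.9 and 30.4 CPM and RPOA-2 depleted larvae 20.5, 21.8, 26.3 and 30.9 CPM, where only depleted replicate 4 reached the undepleted range. The log2 fold change there was -0.35 ± 0.13 (adjusted p = 0.181), and the effects differed by 0.18 ± 0.17 (adjusted p = 0.940). Without RPOA-2 depleted replicate 2, which entered the fit through the control peaks, the factors and the common spread, the GRWD-1 value was -0.55 (adjusted p = 0.0822).

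The remaining peak of this list lay over mir-34, a stress and DNA damage microRNA, and was called in neither depletion. It had log2 fold changes of 0.05 ± 0.13 (edgeR adjusted p = 0.924) and -0.29 ± 0.12 (adjusted p = 0.301).

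The largest fall among all 139 peaks upon GRWD-1 depletion was at mir-235, the worm relative of mammalian miR-92, which holds blast cells quiescent in starved L1 larvae. The peak (chromosome I, 6162270 to 6162898) lies outside coding genes. In the GRWD-1 strains, undepleted larvae had 31.5, 41.1, 31.1 and 39.6 CPM and GRWD-1 depleted larvae 25.1, 23.2, 25.4 and 20.8 CPM, with no overlap. The peak fell 1.48-fold (log2 -0.56 ± 0.11, edgeR adjusted p = 0.00118), and without RPOA-2 depleted replicate 2 the value was -0.59 (adjusted p = 0.059). RPOA-2 undepleted larvae had 32.4, 33.1, 49.2 and 30.8 CPM and RPOA-2 depleted larvae 28.5, 24.0, 34.2 and 27.1 CPM, which overlapped through depleted replicate 3. There the log2 fold change was -0.38 ± 0.13 (adjusted p = 0.111), and the effects differed by 0.18 ± 0.17 (adjusted p = 0.940).

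The mir-1 gene, which acts in muscle, lies 9762 bp from the mir-235 peak on chromosome I. Its peak (6172661 to 6173618) had 76.1, 88.4, 67.5 and 73.7 CPM in GRWD-1 undepleted larvae and 56.7, 80.4, 63.4 and 47.4 CPM in GRWD-1 depleted larvae, where replicate 2 was highest in both and the groups overlapped. It fell 1.24-fold (log2 -0.31 ± 0.08, edgeR adjusted p = 0.0304), a call kept in 5 of the 16 fits without a library (-0.34, adjusted p = 0.289, without RPOA-2 depleted replicate 2). Upon RPOA-2 depletion the value was -0.16 ± 0.09 (adjusted p = 0.473). mir-124, which is made in sensory neurons, had a peak in an intron of trpa-1 with log2 fold changes of 0.01 ± 0.08 (adjusted p = 0.982) and 0.13 ± 0.08 (adjusted p = 0.565). The neuronal lsy-6 and mir-791 had no peak.

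**Figure D3:**
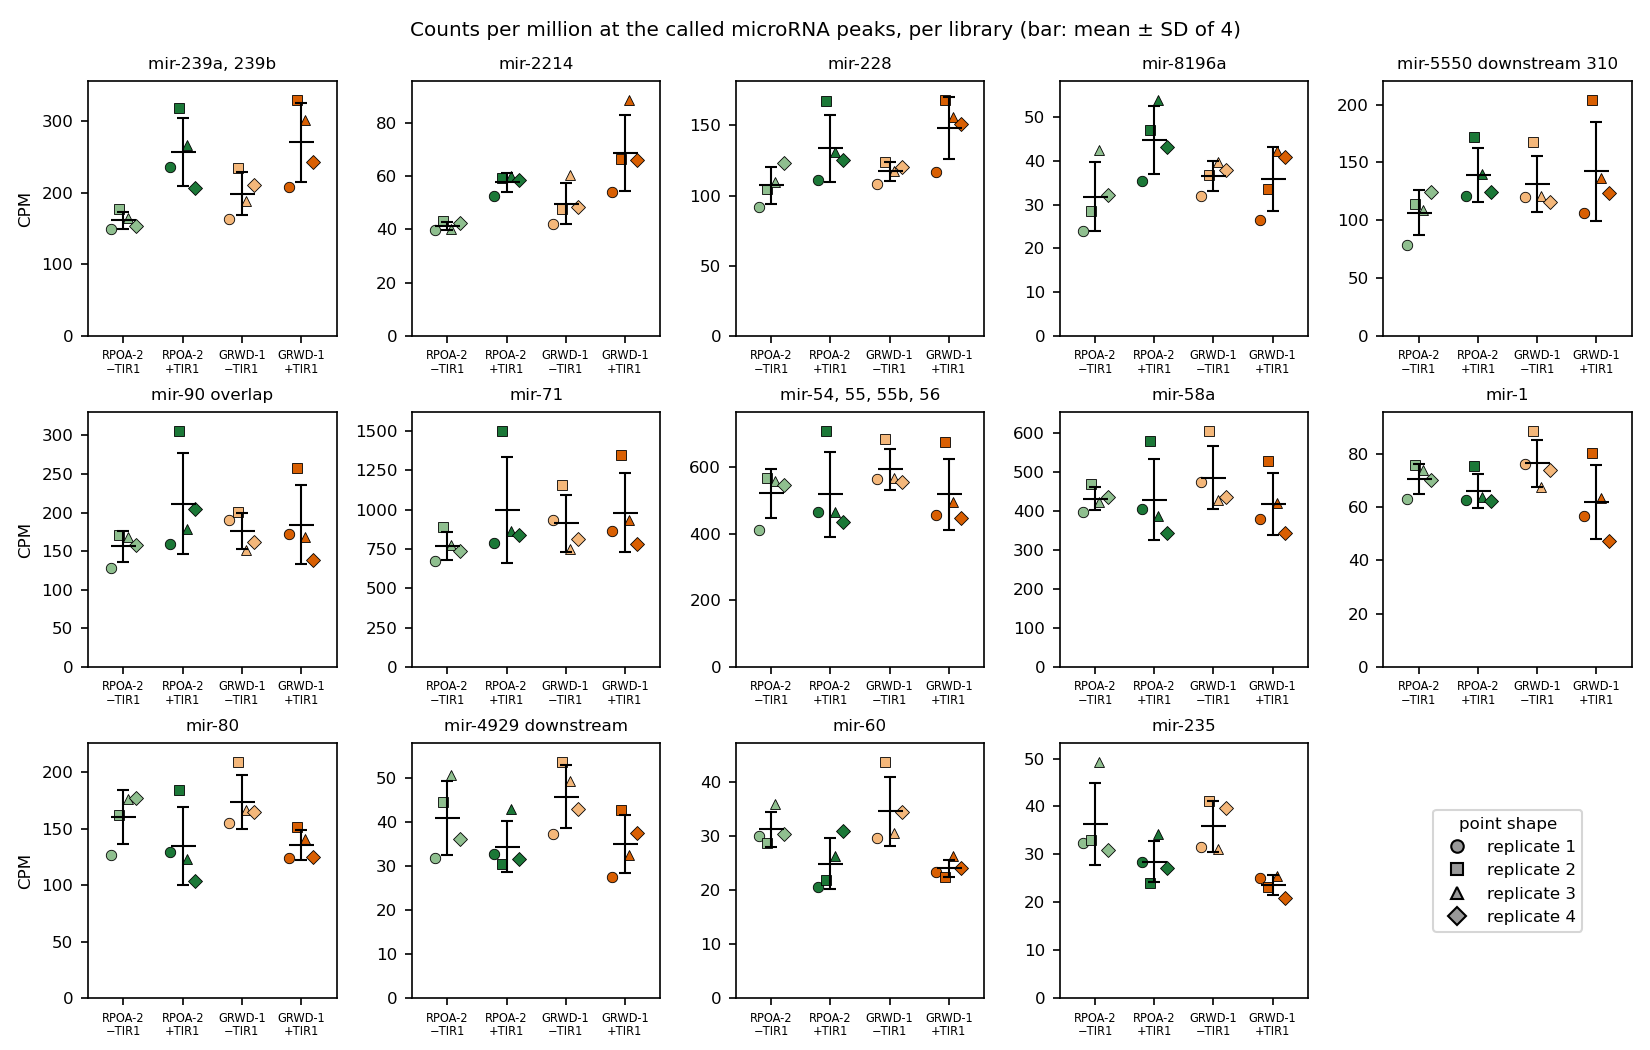
CPM in each library at the 14 microRNA peaks called in either depletion, with 1 panel per peak, 4 groups on the x axis (−TIR1 undepleted, +TIR1 depleted), a shape per replicate number, and bars for mean ± SD of 4. Squares, the libraries numbered 2, are the highest of their group in many panels, such as mir-71 at 1497 CPM, and the panel of mir-239a and mir-239b shows all RPOA-2 depleted libraries above the undepleted ones.

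Of the mir-58 family, 4 of 6 genes had a peak, while mir-58b and mir-58c had none. The mir-58a gene makes one of the most abundant microRNAs of C. elegans, and its peak spans 4352 bp in Y67D8A.2 on chromosome IV (3230437 to 3234788). It had 473, 604, 428 and 436 CPM in GRWD-1 undepleted larvae and 379, 526, 419 and 344 CPM in GRWD-1 depleted larvae, which overlapped. It fell by 0.24 ± 0.07 on the log2 scale (edgeR adjusted p = 0.0319), and the value was -0.29 (adjusted p = 0.371) without RPOA-2 depleted replicate 2. Upon RPOA-2 depletion the value was -0.10 ± 0.07 (adjusted p = 0.574). The peaks over mir-81 and mir-82, at gid-2 on the X, were called in neither, with log2 fold changes from -0.25 to -0.07. The 4 peaks had values below 0 in both depletions, as did 28.5% of all peaks and 33.8% of the microRNA peaks, with medians of -0.18 upon RPOA-2 and -0.19 upon GRWD-1 depletion. Of the 4, 1 fell upon RPOA-2 and 2 upon GRWD-1 depletion, against 0.487% and 0.81% of all peaks.

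The mir-51 family, whose members act redundantly in the embryo, had 5 peaks for its 6 genes, 4 of them the nearest to a gene and 1 lying 383 bp downstream of mir-51. Upon GRWD-1 depletion the peak of the mir-54, mir-55 and mir-56 cluster (chromosome X, 13142879 to 13146424, in an intron of F09A5.3 on the opposite strand) fell. It had 565, 686, 567 and 557 CPM in GRWD-1 undepleted larvae and 456, 676, 496 and 447 CPM in GRWD-1 depleted larvae, where replicate 2 of the depleted larvae lay within the undepleted range. The log2 fold change was -0.24 ± 0.06 (edgeR adjusted p = 0.0378, and 0.475 without RPOA-2 depleted replicate 2), and it was kept in 5 of the 16 fits without a library. Upon RPOA-2 depletion the 5 peaks had values between -0.09 and 0.21, none called. The value of 0.21 ± 0.07 (adjusted p = 0.122) belonged to mir-52, whose CPM in RPOA-2 depleted larvae was 1078, 2140, 1245 and 1186, with replicate 2 again far above the rest.

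The mir-35 family, whose microRNAs are made in the embryo and needed for its survival, had a peak for all 8 of its genes, in 2 peaks, and neither was called. The peak over mir-35 to mir-41 had log2 fold changes of -0.10 ± 0.08 upon RPOA-2 and -0.26 ± 0.08 upon GRWD-1 depletion (edgeR adjusted p = 0.690 and 0.0648). The peak over mir-42, mir-43 and mir-44 had 0.28 ± 0.09 (adjusted p = 0.0880) and 0.03 ± 0.08 (adjusted p = 0.946). Of the other developmental microRNAs listed, 5 of 7 genes had a peak, in 5 peaks, none called. They were mir-57, which patterns the tail, mir-61 with mir-250, of which mir-61 acts in vulval fate, mir-79 and mir-237, with values from -0.21 to 0.03. mir-237 had a short peak of 172 bp over the hairpin and one of 3370 bp that begins 45 bp downstream, over tRNA genes, with log2 fold changes of -0.09 ± 0.07 (edgeR adjusted p = 0.656) and -0.16 ± 0.07 (adjusted p = 0.335) at the latter. mir-83 and mir-259 had no peak.

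**Figure D4:**
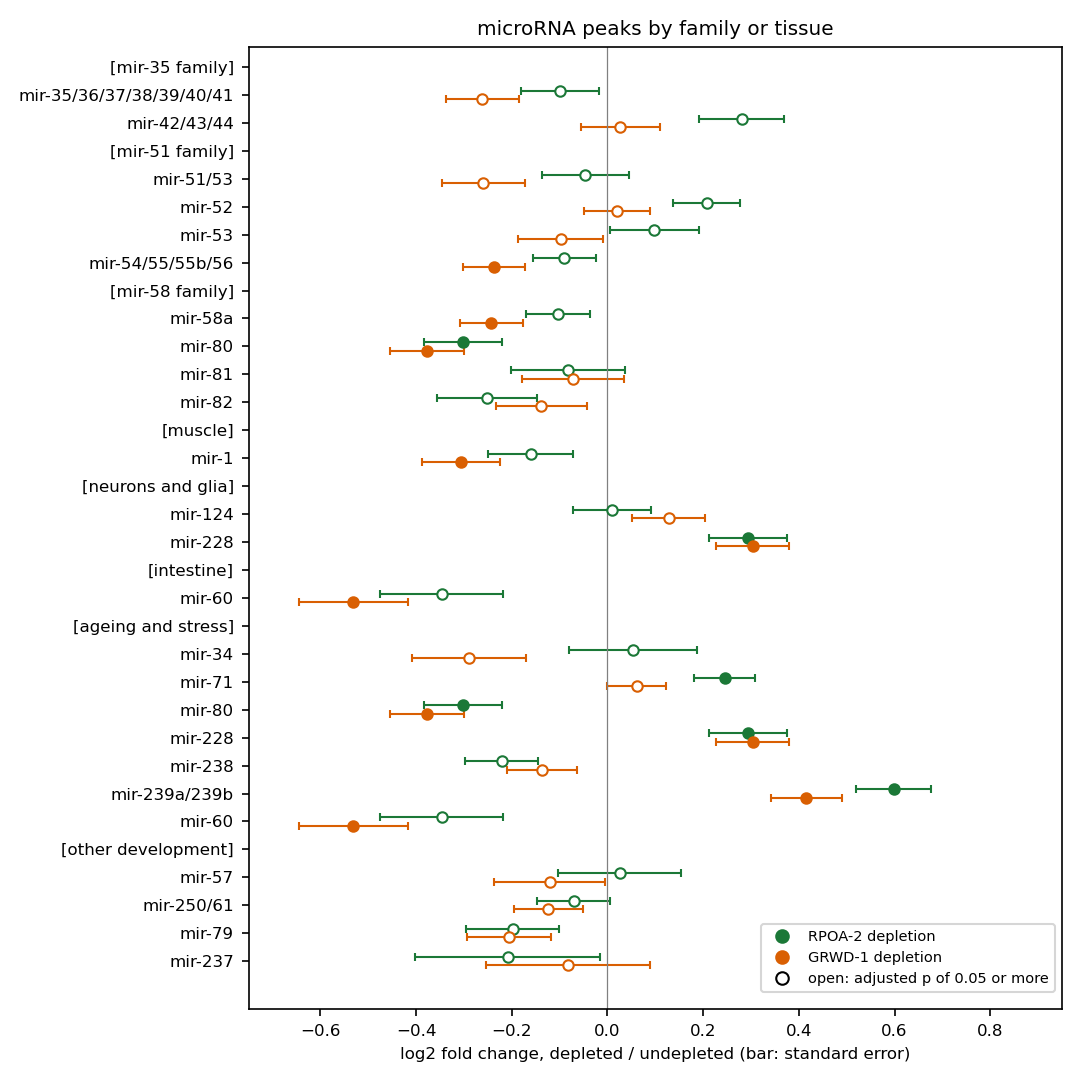
Log2 fold change with its standard error upon RPOA-2 (green) and GRWD-1 depletion (orange) at the peak nearest to each listed microRNA, by family, tissue or role in brackets, with filled points where the edgeR adjusted p was under 0.05. The mir-58 family lies left of 0 throughout, the point of mir-239a and mir-239b at 0.60 is the furthest right, and a peak on more than 1 list is drawn again.

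The other calls were at microRNAs with no role given here, and most of these peaks also cover other genes. The mir-2214 peak (chromosome III, 7278353 to 7279209), over an exon of its host gene B0361.11, rose in both depletions. RPOA-2 undepleted larvae had 39.8, 43.1, 40.2 and 42.2 CPM and RPOA-2 depleted larvae 52.5, 59.4, 60.1 and 58.7 CPM, a narrow spread with no overlap. GRWD-1 undepleted larvae had 42.0, 47.8, 60.4 and 48.4 CPM and GRWD-1 depleted larvae 54.1, 66.3, 88.4 and 66.1 CPM, with replicate 3 the highest of each group and overlapping groups. The log2 fold changes of 0.48 ± 0.10 (edgeR adjusted p = 0.00353) and 0.47 ± 0.09 (adjusted p = 0.000828) differed by 0.0071 ± 0.14. Without RPOA-2 depleted replicate 2, which was not the highest library here, they were 0.51 (adjusted p = 0.382) and 0.52 (adjusted p = 0.101).

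The mir-8196a peak (chromosome X, 2328743 to 2329277), over the long non-coding RNA gene linc-154, rose upon RPOA-2 depletion. RPOA-2 undepleted larvae had 24.0, 28.6, 42.6 and 32.3 CPM and RPOA-2 depleted larvae 35.3, 47.2, 53.9 and 43.2 CPM, which overlapped through undepleted replicate 3. GRWD-1 undepleted larvae had 31.9, 36.8, 39.9 and 38.0 CPM and GRWD-1 depleted larvae 26.6, 33.7, 42.2 and 41.0 CPM. The log2 fold changes were 0.51 ± 0.11 (edgeR adjusted p = 0.00344) and -0.07 ± 0.10 (adjusted p = 0.879). Their difference of 0.58 ± 0.15 had the smallest p of the microRNA peaks (unadjusted p = 0.000271) but an adjusted p of 0.494. Without RPOA-2 depleted replicate 2 the RPOA-2 value was 0.48 (adjusted p = 0.553), and without the 4 libraries numbered 2 it was 0.13 (adjusted p = 0.964).

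The peak 310 bp downstream of mir-5550 holds the 5′ end of the coding gene T07A9.12 (chromosome IV, 410182 to 411040). It had 79.0, 114, 109 and 125 CPM in RPOA-2 undepleted larvae and 121, 172, 140 and 125 CPM in RPOA-2 depleted larvae, which overlapped. Its log2 fold change was 0.32 ± 0.08 (edgeR adjusted p = 0.0116), and 0.25 (adjusted p = 0.641) without replicate 2 of the depleted larvae. Upon GRWD-1 depletion the value was 0.05 ± 0.07 (adjusted p = 0.856). A nearer peak, 23 bp downstream of mir-5550, was called in neither depletion. The peak 209 bp downstream of mir-4929, in the coding gene E01G4.3 (chromosome II, 13460915 to 13461546), had 37.3, 53.5, 49.2 and 42.9 CPM in GRWD-1 undepleted and 27.4, 42.8, 32.5 and 37.4 CPM in GRWD-1 depleted larvae, which overlapped. It fell with a log2 value of -0.43 ± 0.10 (adjusted p = 0.00964), and among the 19 calls it alone held without RPOA-2 depleted replicate 2 (-0.57, adjusted p = 0.030). Upon RPOA-2 depletion its value was -0.31 ± 0.11 (adjusted p = 0.176). The peak over the mir-4929 hairpin itself was called in neither depletion.

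The other 125 peaks were called in neither depletion. Some had log2 fold changes as large as the called ones, mostly at lower counts and with wider errors. Upon RPOA-2 depletion the peaks 336 bp downstream of mir-5594 (0.61 ± 0.24, edgeR adjusted p = 0.203) and 161 bp upstream of mir-2218a (0.55 ± 0.23, adjusted p = 0.268) had the highest such values. Their mean levels were under 10 CPM in every group. The first lies in an exon of K12D12.4 and the second holds the 5′ end of maea-1. The lowest were 56 bp upstream of mir-77 (-0.49 ± 0.20, adjusted p = 0.256), downstream of mir-2 (-0.46 ± 0.22, adjusted p = 0.367), 37 bp downstream of mir-2213 (-0.42 ± 0.15, adjusted p = 0.134) and 95 bp downstream of mir-353 (-0.38 ± 0.22, adjusted p = 0.502). Upon GRWD-1 depletion the peaks upstream of mir-8199 (0.45 ± 0.18, adjusted p = 0.255), at mir-5548 (0.29 ± 0.11, adjusted p = 0.235) and 27 bp upstream of mir-70 (-0.41 ± 0.15, adjusted p = 0.226) were of this kind. In the mir-70 peak, which holds the 5′ end of the host gene pmp-5, the GRWD-1 depleted libraries (9.2 to 12.9 CPM) were all below the undepleted ones (13.3 to 16.0 CPM).

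Between RPOA-2 depleted and GRWD-1 depleted larvae, 1 microRNA peak was called (0.719%, against 0.13% of all peaks, 0.0996% being higher), that of mir-8196a, higher in RPOA-2 depleted larvae by 0.47 ± 0.11 (edgeR adjusted p = 0.0346). The call was not made by DESeq2, and it held in 4 of the 16 fits without a library (0.43, edgeR adjusted p = 0.998, without RPOA-2 depleted replicate 2). At an unadjusted p under 0.05, 15 microRNA peaks were higher and 2 lower in RPOA-2 depleted larvae, against 7.09% of all peaks (4.31% and 2.78%). The median log2 difference was 0.05 against 0.0057 over all peaks. Strong peaks in general leaned the same way. At or above 35.1 CPM, 655 of all 7513 peaks were higher at that p and 172 lower, with a median of 0.027. There 14 of 70 microRNA peaks were higher and 0 lower, with a median of 0.088. Between the undepleted strains 0 microRNA peaks were called by edgeR or DESeq2, against 0.00343% of all peaks by edgeR. At an unadjusted edgeR p under 0.05 there were 3, against 4.06% of all peaks. No microRNA peak had depletion effects that differed between RPOA-2 and GRWD-1 by edgeR or DESeq2 (0 against 0.0103% of all peaks). In edgeR 10 (7.19%) had an unadjusted p under 0.05, against 5.8% of all peaks, and all 10 had the higher value upon RPOA-2 depletion, against 3.17% of all peaks. At or above 35.1 CPM, 372 of all 7513 peaks had the higher value upon RPOA-2 depletion at that p and 162 the lower. Of the 70 microRNA peaks there, 9 had the higher value and 0 the lower. A peak called upon one depletion alone is thus not shown to differ between the depletions.

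The genes that make and use microRNAs were listed beside the loci. A peak was given to the gene whose transcript 5′ end lay nearest to its midpoint, and overlap with the listed genes was not searched. Of 18 such genes 13 had a nearest peak, 26 peaks in all, among them the Argonautes alg-1 and alg-2, their partners ain-1 and ain-2, and the Drosha cofactor pash-1. Drosha (drsh-1), Dicer (dcr-1), alg-5 and paxt-1 were nearest to no peak, which does not show that no peak overlaps them. ntl-1 was not matched to a gene of that symbol. No peak of these genes was called in either depletion by edgeR or DESeq2 (0 of 26 in each, where edgeR called 1.69% and 1.38% of all peaks). At an unadjusted edgeR p under 0.05 there were 4 of 26 in each, against 12.3% and 10.8% of all peaks. The median log2 fold changes were -0.07 upon RPOA-2 and -0.03 upon GRWD-1 depletion. The nearest to a call was a peak of nhl-2, a cofactor of the microRNA machinery, with -0.34 ± 0.10 upon RPOA-2 depletion (edgeR adjusted p = 0.0782).

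The calls differed in how often they held when each of the 16 libraries was left out in turn. Upon RPOA-2 depletion the calls held in 14 of 16 fits at mir-2214, 13 at mir-8196a, 11 downstream of mir-5550, 10 at mir-90, 9 at mir-71 and at mir-80, and 7 at mir-228. Upon GRWD-1 depletion they held in 14 of 16 fits at mir-235, mir-2214 and mir-80, 13 at mir-60, 12 at mir-228 and downstream of mir-4929, and 6 at mir-58a. The direction was kept in all of these fits except at mir-71. Without the 4 libraries numbered 2, the value moved by over 1.5 times at 5 calls. Upon GRWD-1 depletion it became -0.17 at mir-80, -0.15 at mir-58a (edgeR adjusted p = 1.00 at both) and -0.66 downstream of mir-4929 (adjusted p = 0.426), and upon RPOA-2 depletion 0.13 at mir-228 (adjusted p = 0.941) and at mir-8196a, as given above.

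**Figure D5:**
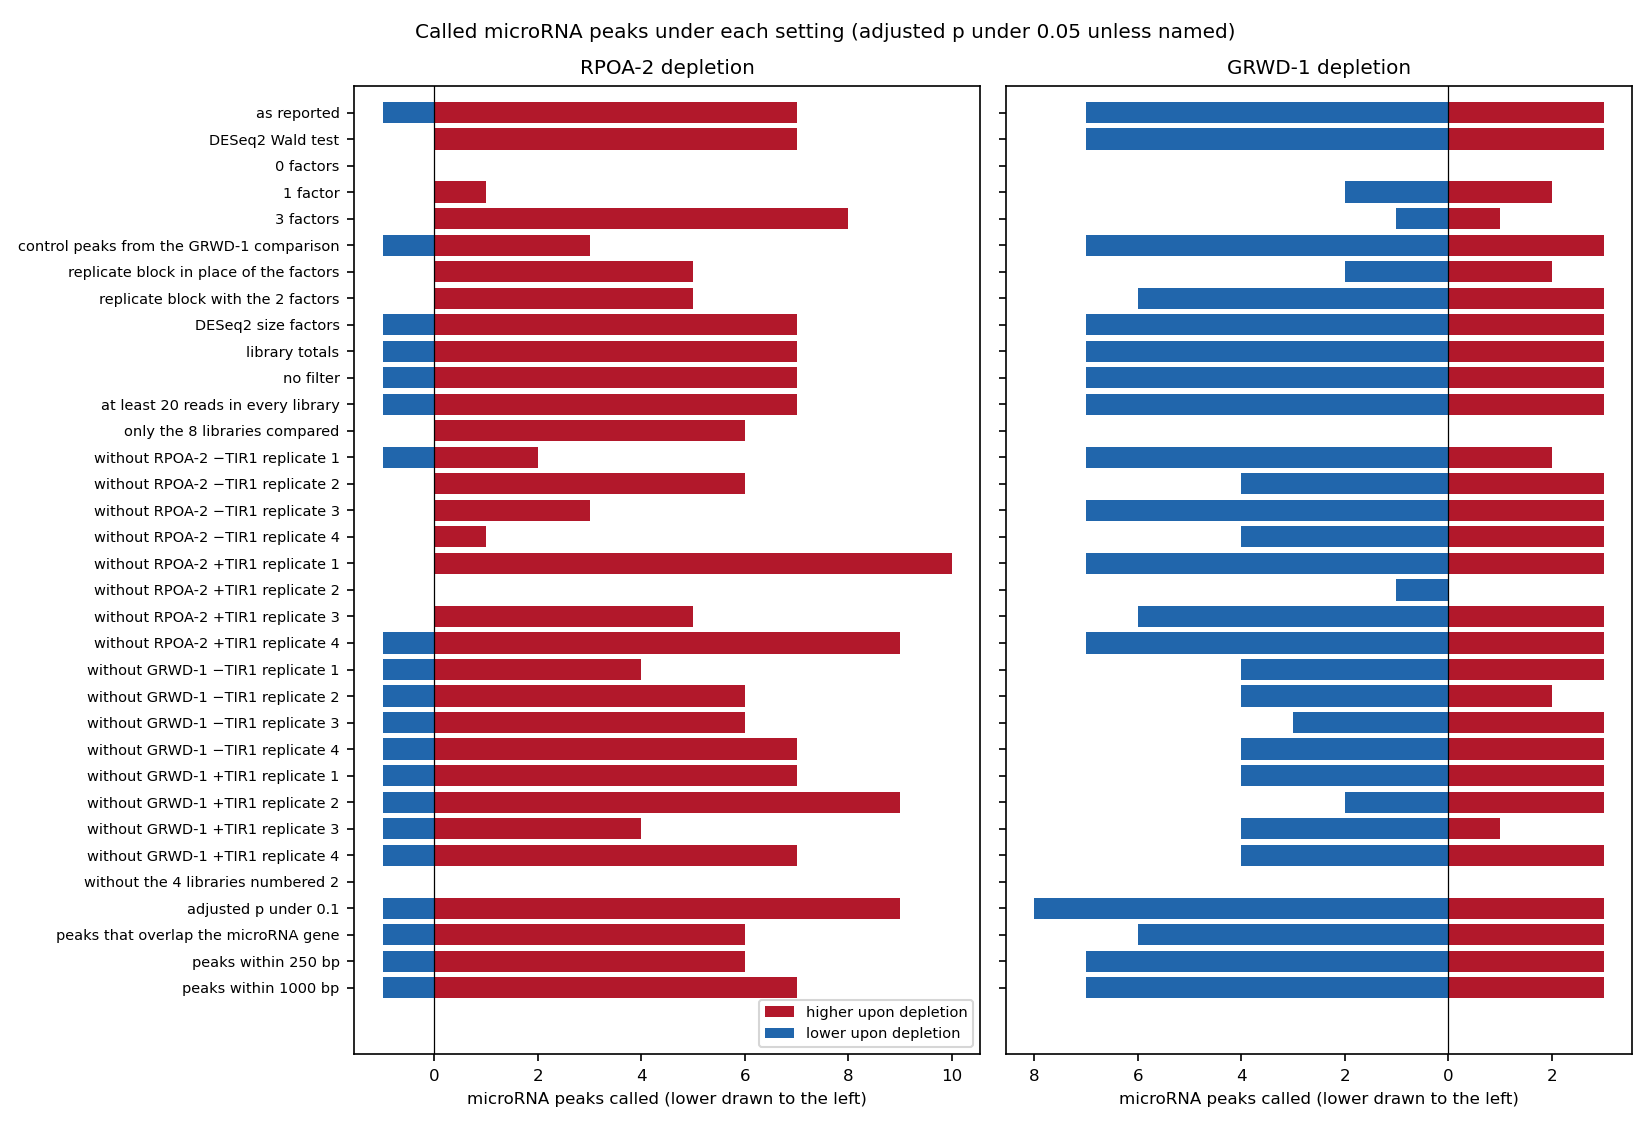
Number of microRNA peaks called upon RPOA-2 depletion (left) and GRWD-1 depletion (right) under each setting of the processing, with higher peaks drawn to the right of 0 and lower ones to the left. The bars vanish on both sides with 0 factors and without the 4 libraries numbered 2, while another normalization or filter leaves 8 and 10 calls.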

How the data were processed

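Per the sources used here, the authors trimmed reads (fastp), aligned them to the WBcel235 genome (Bowtie2), dropped duplicate, mitochondrial and poorly mapped ones, and called peaks in each library (MACS2). Peaks were merged with HOMER, and featureCounts 2.0.1 gave the counts. The deposited counts are whole numbers without normalization for 29131 peaks in 16 libraries of 2337415 to 13010378 reads, and 0 sample columns were left unused. The precision at a peak follows its reads.

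In R 4.3.3, edgeR 4.0.16 was fitted to the counts (glmQLFit, glmQLFTest, TMM, filterByExpr, which removed 0 peaks). Its design had 4 genotypes and 2 factors of unwanted variation, as RUVg computes them, with 13897 control peaks whose adjusted p was at least 0.75 when DESeq2 1.42.0 compared the RPOA-2 strains. Benjamini-Hochberg adjustment ran over all peaks, with a threshold of 0.05. Standard errors were computed from the fold change and F, and are not given by edgeR. edgeR's common biological coefficient of variation was 8.14%. Within groups, the 24 pairs of libraries differed by more than counting error (chi-square per degree of freedom 1.87 to 11.8).

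Peaks were matched to microRNA genes of the Ensembl WBcel235 annotation by distance. Named were all peaks called in any of 5 comparisons, the 5 largest and 5 smallest log2 fold changes in each depletion, the nearest peak of each listed microRNA, and the 3 strongest and 3 weakest peaks per kb. The mir-5549 peak was named as a check of the labels. The members and lists were chosen with earlier results of these data known. MicroRNA sequences were not used here, so no families by shared seed were built. Alternatives were a DESeq2 test, 0, 1 or 3 factors, other control peaks, a replicate block, the normalization, the filter, the threshold, the distance, a fit of 8 libraries only, and omission of each library in turn. Leaving out the 4 libraries numbered 2 was chosen after seeing the data. Control peaks were chosen anew where libraries were left out, and were kept in the fit of 8 libraries.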

Additional observations from a re-analysis of the deposited data

Results flagged for a closer look

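Among 160 groups of 4 libraries (40 named peaks in 4 strains), 16 held a library whose gap to its nearest neighbour, as a share of the group's range, exceeded Dixon's critical value for 4 samples, where chance alone gives about 8. Of the 16, 10 were libraries numbered 2. In RPOA-2 depleted larvae, replicate 2 stood apart with 1497 CPM at mir-71 (next 862), 2140 at mir-52 (next 1245), 708 at mir-54/mir-55/mir-55b/mir-56 (next 465), 188 at mir-124 (next 119), 75.5 at mir-1 (next 63.9), 41.8 at mir-82 (next 36.3) and 234.6 at mir-5549 (next 204). In GRWD-1 undepleted larvae, replicate 2 did so with 686 CPM at mir-54/mir-55/mir-55b/mir-56 (next 567) and 168 at the peak downstream of mir-5550 (next 121), and replicate 3 with a low 58.8 CPM at mir-42/mir-43/mir-44 (next 73.7). In RPOA-2 undepleted larvae, replicate 1 was low with 832 CPM at mir-52 (next 1226) and 412 at mir-54/mir-55/mir-55b/mir-56 (next 545), replicate 2 was low with 2.87 at mir-5594 (next 7.22) and replicate 3 high with 49.2 at mir-235 (next 33.1). In RPOA-2 depleted larvae, replicate 3 was high with 12.9 CPM at mir-2218a (next 7.83) and replicate 4 with 9.53 at the peak 95 bp downstream of mir-353 (next 5.85).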

How the results depend on the processing

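The 8 calls upon RPOA-2 depletion became 0 with 0 factors, 1 with 1 factor, 4 with control peaks from the GRWD-1 comparison and 0 without the 4 libraries numbered 2, and ranged from 0 to 10 when a library was left out (0 without RPOA-2 depleted replicate 2, 1 without RPOA-2 undepleted replicate 4, 3 without RPOA-2 undepleted replicates 1 or 3, and 5 without RPOA-2 depleted replicate 3, GRWD-1 undepleted replicate 1 or GRWD-1 depleted replicate 3). Over all peaks (1.69% as reported) it was 0.117% with 0 factors, 0.457% with 1 factor and 0.446% with GRWD-1 control peaks. Without the 4 libraries numbered 2 it was 0.0824%, and without a single library 0.117% to 2.54%. The 10 upon GRWD-1 depletion became 0 with 0 factors, 4 with 1 factor, 2 with 3 factors, 0 with only the 8 libraries compared and 0 without the libraries numbered 2, and ranged from 1 to 10 (1 without RPOA-2 depleted replicate 2, 5 without GRWD-1 depleted replicates 2 or 3, and 6 without GRWD-1 undepleted replicates 2 or 3). Over all peaks (1.38% as reported) it was 0.137%, 0.549% and 0.347% with 0, 1 and 3 factors, and 0.0275% with the 8 libraries. Without the libraries numbered 2 it was 0.0652%, and without a single library 0.299% to 1.49%. The replicate numbers correlated over 0.1 in 14 of 24 pairs of libraries (0.14 to 0.47 for number 1, 0.20 to 0.45 for 2, 0.0063 to 0.10 for 3 and -0.02 to 0.11 for 4), and in 16 of 24 the library correlated best with its own number, a hint from the data; the labels tie no number to a batch, so the numbers were not taken to pair the samples. With the replicate block in place of the factors the counts were 5 and 4 (1.78% and 0.68% of all peaks). With the block and both factors it was 5 upon RPOA-2 depletion (1.04% of all peaks). The 1 call between the depleted larvae became 0 with DESeq2, with 0, 1 or 3 factors, with GRWD-1 control peaks, with either replicate block and without the libraries numbered 2, 2 with DESeq2 size factors, library totals or an adjusted p under 0.1, and 0 to 5 without a library. Over all peaks (0.13% as reported) the settings that gave 0 here called 0.00687% to 0.0893%. DESeq2 size factors or library totals called 0.148% of all peaks, and the fits without a library 0.0103% to 0.457%. Between undepleted strains the block in place of the factors gave 1 in place of 0 (0.0481% of all peaks). For the microRNA pathway genes upon RPOA-2 depletion it also gave 1 in place of 0, and leaving out a library gave 0 to 1. The mir-71 value upon RPOA-2 depletion turned to -0.040 with GRWD-1 control peaks and ranged from -0.028 to 0.358 without a library (-0.028 without RPOA-2 depleted replicate 2), and of the 19 calls it alone changed sign. The cause of these changes was not tested. DESeq2 kept 17 of the 19 calls.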
